A study of Mus musculus with 20 samples.

Results

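The comparison set bone marrow-derived macrophages grown with SGC0946, an inhibitor of the histone methyltransferase DOT1L, against macrophages grown with its solvent DMSO, with no further stimulus in either arm. It rests on 8 of the 20 RNA-seq libraries of the study, chosen by their treatment labels: 4 SGC0946 libraries and 4 DMSO libraries. All cells were wild-type C57BL/6 marrow cultured for 7 to 8 days in 15% L929-conditioned medium, a source of the growth factor M-CSF, and 1 µM SGC0946 or DMSO was present throughout that culture, so the inhibitor acted on differentiating cells and not only on finished macrophages. The other 12 libraries repeat both arms with LPS (10 ng/mL for 3 h, 3 libraries per arm) or with the LXR agonist GW3965 (2 µM for 17 h, 3 libraries per arm) and served here to show whether the inhibitor's effect was seen again. The sex and age of the mice were not given in the sources used here. In all 20 libraries the replicate number equals the mouse number of the deposited sample table, so that mouse 1 to mouse 4 each gave a culture to both arms.

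DOT1L is the enzyme that methylates lysine 79 of histone H3, a mark found over the bodies of transcribed genes and deposited together with elongating RNA polymerase. It works within complexes of the AF9, AF10 and ENL families, and is best known for keeping HOX and other progenitor genes active in leukaemias with MLL fusions. SGC0946 blocks the catalytic activity of the protein, so the level of the Dot1l transcript does not check the labels.

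Each of the 8 libraries held 9377928 to 12920019 counts after 1 transcript per gene symbol was kept. Levels are given as CPM, counts scaled to library size, in mouse order 1 to 4, effects as log2 fold changes with 1 SE, and levels of different genes are compared only as RPKM. A gene was called when its Benjamini-Hochberg adjusted p in edgeR's quasi-likelihood test was under 0.05, with no fold threshold. In a principal component analysis the first component (37.1% of the variance) put all DMSO libraries on one side and all SGC0946 libraries on the other, and the second (18.9%) set mouse 1 of both arms apart from the rest. SGC0946 libraries of mice 2 and 4 lay farthest from DMSO on the first component, at 24.2 and 21.1, against 7.3 and 13.1 for mice 1 and 3. The biological coefficient of variation was 9.57% among the SGC0946 libraries and 6.92% among the DMSO libraries. The titles of the DMSO libraries of mice 1 to 3 carry the word reanalyzed and those of the other 5 do not, and DMSO library 4 is the only unstimulated control without it. Macrophage genes such as Csf1r (2110 CPM in DMSO, 2210 in SGC0946) and Adgre1 (1010 and 1110 CPM) were high in both arms. Haemoglobin, mast cell protease and T cell receptor-associated genes were at or near 0: Hba-a1, Hbb-bs, Mcpt4 and Tpsb2 had no count in any of the 8 libraries, and Cd3e averaged 0.102 CPM in DMSO. Dot1l measured 64.2, 57.5, 56.6 and 55.7 CPM in DMSO and 53.8, 44.9, 64.7 and 44.1 CPM in SGC0946, with overlapping ranges, and the change of -0.18 ± 0.13 was not called (edgeR adjusted p = 0.44).

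Of 12013 genes tested, 1048 (8.72%) were called, 546 higher (4.55%) and 502 lower (4.18%) with SGC0946. The rises and the falls differed in expression level and in size. Genes called higher were mostly weakly expressed, with a median of 1.76 RPKM in DMSO, and moved far: their median change was 0.76, and 194 of them changed 2-fold or more. Genes called lower were well expressed, with a median of 17.0 RPKM in DMSO, and moved little: their median change was -0.33, 370 of the 502 changed by less than 0.5, and 25 changed 2-fold or more. The median over all tested genes was 8.46 RPKM and a change of -0.004. All 4 SGC0946 libraries lay outside the range of the 4 DMSO libraries for 1931 genes (16.1%), among them 482 of the 546 genes called higher and 453 of the 502 called lower. Most called genes thus show no overlap, so where this is said of a called gene below it adds no support to the call.

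The share called lower rose from band to band with the level, and the share called higher was largest in the lowest band. Among 1579 tested genes under 1 RPKM on average over the 8 libraries, 11.6% were called higher and 1.08% lower, and their median change was 0.26. Among 476 genes over 100 RPKM, 3.99% were called higher and 9.24% lower, with a median change of -0.05. The shares were 4.42% higher and 3.49% lower from 1 to 10 RPKM, and 2.49% higher, the smallest share of rises, and 5.36% lower from 10 to 100 RPKM. The median SE below 1 RPKM was 0.33 against 0.06 above 100 RPKM, so small changes in either direction were harder to call below 1 RPKM. Within a band the called rises and falls were closer in size. The medians of genes called higher and lower were 1.32 and -0.99 below 1 RPKM, and 0.68 and -0.5 from 1 to 10 RPKM. They were 0.32 and -0.27 from 10 to 100 RPKM, and 0.41 and -0.23 above 100 RPKM. The filter on low counts keeps a gene that reaches the count minimum in enough libraries, which 1 arm alone can supply. Among symbols too low to test, 17 had no count in any DMSO library and at least 1 in every SGC0946 library, and 3 showed the reverse.

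**Figure D1:**
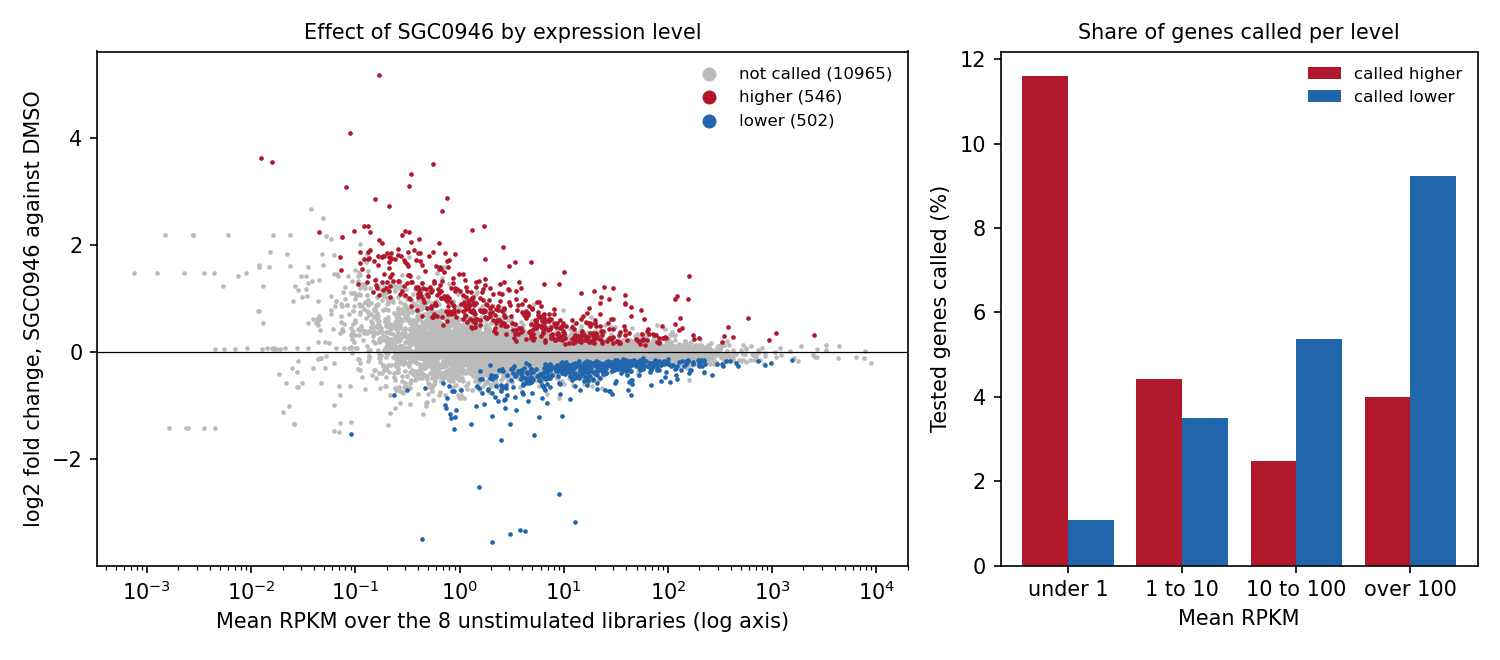
Left, log2 fold change of SGC0946 against DMSO for each of the 12013 tested genes over its mean RPKM in the 8 libraries (log axis), with called genes coloured. Right, percent of tested genes called in each direction per band of mean RPKM: below 1 RPKM 11.6% were called higher and 1.08% lower, above 100 RPKM 3.99% and 9.24%.

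Several limits apply to these counts. With the libraries scaled by their totals alone the calls split into 634 higher and 378 lower, 62.6% higher against 52.1% with TMM scaling. A fit with the mouse as a block called 758 higher and 723 lower, among them all 546 of the rises and 499 of the falls. Leaving out the SGC0946 libraries of mice 2 and 4 left 321 calls (189 higher, 132 lower), of which 173 and 116 were among the calls above. Leaving out 1 library changed the count most for SGC0946 mouse 4 (578 calls), DMSO mouse 4 (599) and SGC0946 mouse 2 (673). Calls for 260 of the genes higher and 191 of the genes lower stood in all 8 fits that each left out 1 library, and genes described below are among them unless stated otherwise. With DMSO library 4 as the only control, 84 genes were called higher and 83 lower, in a fit where the spread comes from the other groups and the lone library is assumed to vary like them, so the lower count is no measure of stability. One stretch of the falls counts the same reads many times: 21 symbols of the protocadherin gamma cluster on chromosome 18, whose transcripts share their last exons, were all called lower with changes of -0.71 to -0.51. With such symbols counted once the calls were 546 higher and 480 lower of 11980.

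The largest rises were in genes nearly silent in DMSO cells. This is partly set by the selection, since a very large ratio needs a low base. Such genes can also pass the filter on low counts through the SGC0946 arm alone. The ratios and intervals of Arhgef5 here and Peg10 below are those of genes picked for a large change. Arhgef5, a guanine nucleotide exchange factor for small GTPases, gave 1, 1, 0 and 0 reads in the DMSO libraries and 19, 27, 21 and 21 in the SGC0946 libraries, a ratio of 46.5 with a counting interval of 12.5 to 390 (95%, exact). Its fitted change was 5.17 ± 0.58 (edgeR adjusted p = 8.21e-06), and the groups did not overlap. Its RPKM in SGC0946 cells was still only 0.328. Itm2a, a small transmembrane protein gene, rose from 0.168, 0.199, 0.318 and 0.45 CPM to 2.0, 1.94, 1.9 and 2.71 CPM, a change of 2.87 ± 0.30 (edgeR adjusted p = 2.97e-06). Some of the rises with the smallest p were in better expressed genes, while others, such as Armcx2 at 0.567 RPKM in DMSO, were weakly expressed. Mamdc2, a secreted proteoglycan gene, rose from 17.1, 17.9, 18.2 and 15.7 CPM to 39.0, 51.6, 49.6 and 54.3 CPM, a change of 1.5 ± 0.13 (edgeR adjusted p = 3.66e-07). Mgll, which encodes the lipase that cleaves monoacylglycerols, rose from 5.03, 5.04, 6.45 and 6.83 CPM to 13.8, 18.9, 18.6 and 19.7 CPM. Jade2, a subunit of histone acetyltransferase complexes, went from 89.0 to 102 CPM in DMSO to 134 to 152 CPM in SGC0946, a smaller change of 0.59 ± 0.06 that was as even over mice.

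A run of 3 neighbouring genes on chromosome 6 rose together, next to genes on both sides that did not pass the test. They are Sgce (GRCm38.p6, chr6:4674350-4747204), which encodes a sarcoglycan, Peg10 (chr6:4747306-4760517), a paternally expressed gene of retrotransposon origin whose annotated span lies 102 bases from that of Sgce, and Ppp1r9a (chr6:4902872-5165661), a neural scaffold that binds actin and protein phosphatase 1. This region is known as an imprinted cluster. Sgce gave 0, 4, 1 and 3 reads in DMSO and 15, 29, 26 and 22 in SGC0946, and its fitted change was 3.51 ± 0.45. Peg10 gave 0, 0, 2 and 1 reads in DMSO and 12, 18, 11 and 16 in SGC0946, a ratio of 20.1 with a counting interval of 6.53 to 100. Ppp1r9a went from 3.1, 6.7, 3.18 and 4.13 CPM to 17.5, 31.7, 16.6 and 18 CPM, a change of 2.27 ± 0.27 (edgeR adjusted p = 1.66e-05). In each of the 3 genes every SGC0946 library lay above every DMSO library, and mouse 2 had the highest Ppp1r9a level in both arms. On one side the nearest tested gene, Casd1, changed by 0.08 ± 0.07 (edgeR adjusted p = 0.537), and on the other Pon3 and Pon2, changed by 0.09 ± 0.06 and 0.16 ± 0.10 without a call (edgeR adjusted p = 0.397 and 0.382), though Pon2 was called with the mouse as a block (edgeR adjusted p = 0.0198). Farther out, Gng11 was called higher at 0.61 ± 0.13 (edgeR adjusted p = 0.00642), Asb4 measured 0.63 ± 0.25 without a call (edgeR adjusted p = 0.132, or 0.0188 with the mouse as a block), and Sem1 was called lower at -0.19 ± 0.06, a call kept in 2 of the 8 fits. These flanking genes were chosen for their position. Sgce, Peg10 and Ppp1r9a were also called higher after LPS (4.4, 2.16 and 2.23) and under GW3965 (4.35, 3.96 and 2.15).

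**Figure D2:**
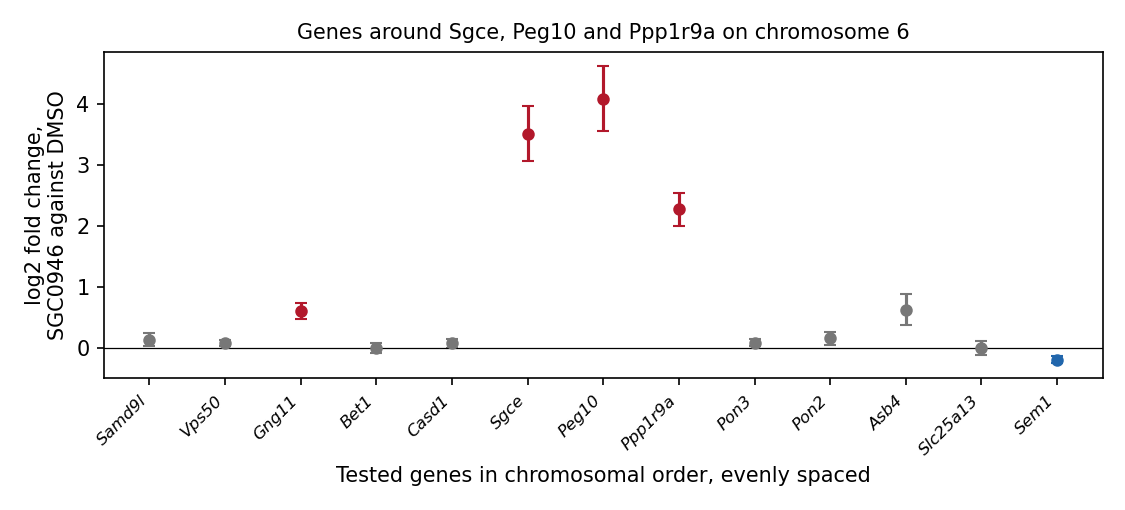
Log2 fold change of SGC0946 against DMSO, with 1 SE, for the 13 tested genes around Sgce and Peg10 on chromosome 6, in chromosomal order and evenly spaced; red marks genes called higher and blue a gene called lower. Sgce, Peg10 and Ppp1r9a lie at 3.51, 4.08 and 2.27, Casd1, Pon3 and Pon2 next to them lie at 0.16 or less, and Gng11 and Asb4 farther out lie at 0.61 and 0.63.

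Called genes also stood side by side elsewhere. Of 11992 pairs of tested genes adjacent on a chromosome, 139 (1.16%) were called in both members: 70 pairs were both higher, 44 both lower, and 25 went opposite ways. The share of single genes called, 8.72%, is no reference for pairs. Whether called genes adjoin more often than by chance was not tested. Of the 44 pairs both lower, 21 lie in the protocadherin gamma cluster with its shared reads. Without them 23 pairs were both lower and 118 were called in both members. Runs of rises included H2-Ob, H2-Ab1, H2-Aa and H2-Eb1 on chromosome 17, and C1qb, C1qc and C1qa on chromosome 4. Others were Mmp13, Mmp12 and Mmp10 on chromosome 9, and Itgam with Itgax on chromosome 7. H2-Eb1 kept its call in 2 of the 8 fits, C1qc in 3, Mmp10 in 4 and Itgax in 5. H2-Ob kept it in 6, and H2-Aa and C1qa in 7. Cd4, which T cells and some macrophages express, changed by 0.74 ± 0.13 and lies 498 bases from Gpr162, which changed by 0.33 ± 0.05 (both edgeR adjusted p under 0.05). Strand was not known, so reads running from one gene into the next cannot be told apart. By chromosome the share called higher was largest on chromosome 6, with 44 of 577 tested genes (7.63%), followed by the X chromosome with 23 of 382 (6.02%) and chromosome 16 with 5.87%, against 4.55% of all genes. Armcx2, which encodes an armadillo-repeat protein, rose from 2.1, 2.12, 1.83 and 2.4 CPM to 7.64, 12.7, 12.2 and 10.9 CPM, a change of 2.36 ± 0.20 (edgeR adjusted p = 3.66e-07). Its relative Bhlhb9 on the same chromosome, named after its value was seen, changed by 1.36 ± 0.17, while the 4 further members tested, Armcx1, Armcx3, Armcx5 and Armcx6, also chosen after Armcx2 was seen, did not pass the test with changes of 0.10 to 0.90.

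The fall with the smallest p was in Sort1. It encodes sortilin, a receptor that sorts proteins between the Golgi, endosomes and the cell surface. Sort1 measured 85.2, 93.9, 83.0 and 102 CPM in DMSO and 40.1, 36.8, 36.0 and 45.2 CPM in SGC0946, a change of -1.20 ± 0.08 with the smallest p of all genes (edgeR adjusted p = 5.01e-09). The values fell in 4 of 4 mice by about the same amount, and the change was -1.17 ± 0.10 after LPS and -1.18 ± 0.09 under GW3965. Uck2, a kinase of the pyrimidine salvage pathway, fell from 9.98, 11.1, 8.76 and 11.2 CPM to 3.21, 3.43, 3.52 and 3.85 CPM. Panx1, the pannexin channel that releases ATP, fell from 14, 16.3, 17.6 and 18.2 CPM to 6.51, 5.96, 8.21 and 7.77 CPM. Ptp4a3, a phosphatase gene, fell by 1.08 on the log2 scale, and Lrp5, a co-receptor for Wnt ligands, by 0.68. App, the amyloid precursor protein gene, was at a high level, at 801, 818, 801 and 862 CPM in DMSO and 661, 615, 610 and 644 CPM in SGC0946, a change of -0.38 ± 0.05 (edgeR adjusted p = 3.89e-05). All DMSO libraries were above all SGC0946 libraries for each of these 6 genes, as for 453 of the 502 falls and 1008 of all 12013 genes. The 6 were among the falls with the smallest p in these libraries, so this is no separate support.

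**Figure D3:**
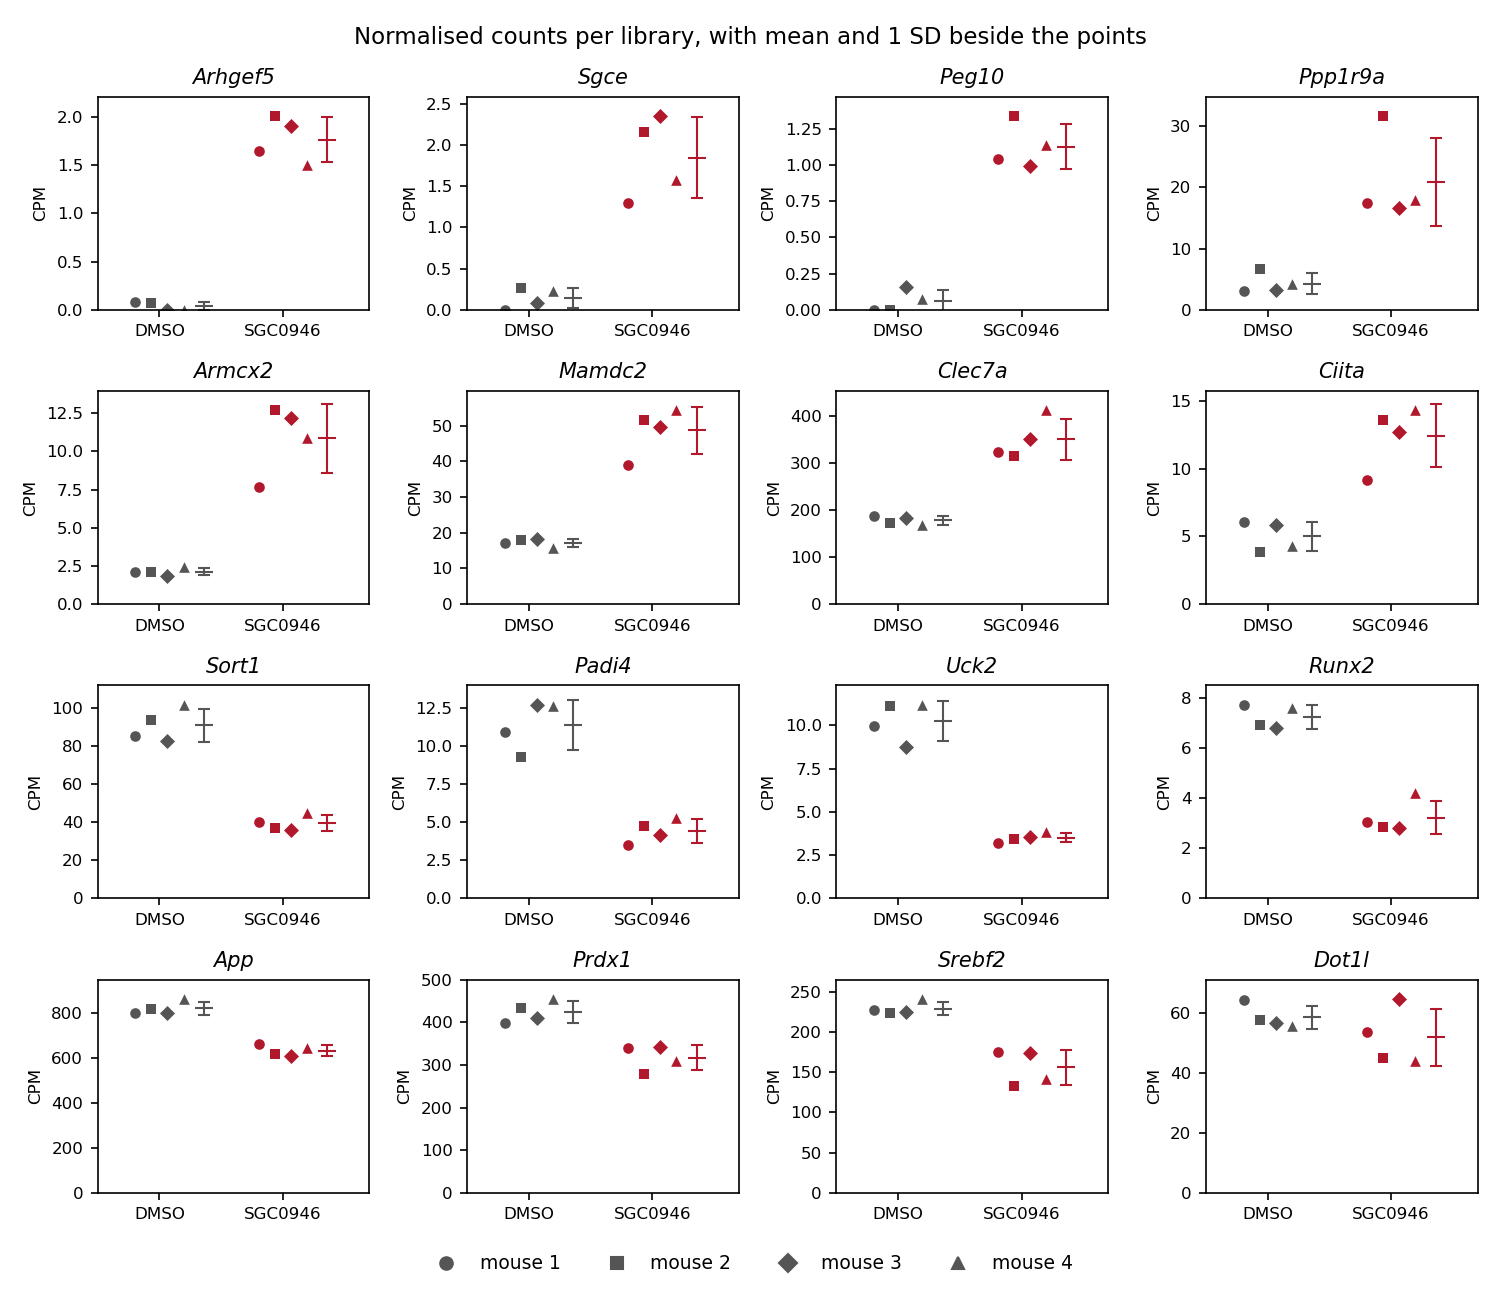
CPM of 16 genes in each of the 8 libraries on linear axes from 0, with a marker shape per mouse and the mean ± 1 SD beside the points. Arhgef5, Sgce and Peg10 lie near 0 in every DMSO library, Sort1 lies at 83.0 to 102 CPM in DMSO and 36.0 to 45.2 CPM in SGC0946, and the ranges of Dot1l overlap.

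In a list of granule and neutrophil genes, 7 of 14 tested members (50.0%) were called lower and none higher, with a median of -0.85. Among all genes 4.18% were called lower and 4.55% higher. All 7 calls stood in each of the 8 fits. The 7 were Lcn2, Ngp, S100a8, S100a9, Ltf, Padi4 and Chil3, all with a mean under 12 CPM in DMSO. A further 14 members were too low to test, among them Elane (0.147 CPM in DMSO), Mpo (0.257) and Ly6g (0.128). Ngp, a granule protein of the cathelicidin type, gave 7.05, 9.81, 8.12 and 10.5 CPM in DMSO and 0.434, 0.671, 0.542 and 1.71 CPM in SGC0946. S100a9 gave 10.4, 10.6, 14.6 and 11.8 CPM against 0.521, 1.42, 0.812 and 2.28 CPM, and its partner in calprotectin, S100a8, changed by -2.64 ± 0.31. Padi4, which converts arginine to citrulline in histones and is best known from neutrophils, fell from 10.9, 9.28, 12.7 and 12.6 CPM to 3.47, 4.77, 4.15 and 5.27 CPM. In the monocyte list Plac8 was also called lower at a low level and went from 8, 12, 3 and 7 reads to 1, 0, 0 and 1. Fn1, the fibronectin gene, also on that list, changed by 2.26 ± 0.35, from 0.871 ± 0.362 to 4.09 ± 1.5 CPM (SD, n = 4), and the summed level of the 21 monocyte genes was 1130 to 1200 CPM in DMSO and 1070 to 1180 CPM in SGC0946. The summed level of the granule list was 10100 to 11900 CPM in DMSO and 8050 to 11500 CPM in SGC0946, most of it Lyz2, which macrophages express too and which was not called (-0.20), or was called at -0.41 without SGC0946 libraries 2 and 4 (edgeR adjusted p = 0.0394). Whether a different share of granulocytes has a part in these falls was not tested. Fewer cells of a type and less RNA per cell cannot be told apart in bulk libraries.

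The changes in an antioxidant, heme and iron list were small. Of 33 members tested, 12 were called lower (36.4%, against 4.18% of all genes) and none higher, with a median of -0.17. Many of its genes are known targets of NRF2, the factor that answers oxidative stress, and Nfe2l2, which encodes NRF2, was itself among the 12 at -0.17 ± 0.05. Nfe2l2 lost its call in each of the 8 fits that left out 1 library. Prdx1, a peroxidase that removes hydrogen peroxide, measured 399, 433, 409 and 455 CPM in DMSO and 339, 279, 341 and 309 CPM in SGC0946, a change of -0.42 ± 0.07 (edgeR adjusted p = 0.000511). Gsr, glutathione reductase, fell from 42.4 to 47.6 CPM to 33.7 to 37.2 CPM, and Blvrb, biliverdin reductase, from 103 to 105 CPM to 81.1 to 92.6 CPM. No DMSO library was as low as any SGC0946 library for Prdx1, Gsr or Blvrb, and their calls stood in all 8 fits. The other 9, Hmox1 (heme oxygenase 1), Srxn1, Cat, Gclm, Gclc, Mt1, Txn1, G6pdx and Nfe2l2, changed by -0.38 to -0.17, and each lost its call without at least 1 library, DMSO mouse 4 in every case. Without the SGC0946 libraries of mice 2 and 4, 3 members were called lower. The list's median difference from the DMSO mean was nevertheless alike in the SGC0946 libraries of mice 1 to 4, at -0.13, -0.16, -0.16 and -0.17. In the other conditions 7 members were called lower after LPS and 5 under GW3965, among them Prdx1 (-0.35 and -0.32) and Hmox1 (-0.51 and -0.30).

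The promoter of Prdx1 is shown because it carries the core letters of the NRF2 element, TGACNNNGC, here in the reverse direction in capitals. It was searched on both strands from 250 bases before to 50 after the start site in RefSeq's promoter table for GRCm38.p6. These letters were added to the search after the list's values were seen. The window lies at chr4:116685349-116685648 on the plus strand, its start site 55 bases from that of the counted transcript.
Prdx1: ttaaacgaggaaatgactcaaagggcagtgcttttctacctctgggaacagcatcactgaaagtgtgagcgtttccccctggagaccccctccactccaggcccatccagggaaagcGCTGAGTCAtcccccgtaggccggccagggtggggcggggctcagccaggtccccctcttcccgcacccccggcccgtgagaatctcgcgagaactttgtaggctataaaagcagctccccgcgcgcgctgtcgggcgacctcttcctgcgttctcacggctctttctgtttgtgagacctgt
The letters were held by 5 of the 9 called members with a promoter in the table (Nfe2l2, Gclm, Srxn1, Prdx1 and G6pdx), by 3 of 17 members not called, and by 14.8% of the 9644 promoters of tested genes.

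Complement genes act in opsonisation and clearance. Of 18 tested members of the list, 8 were called higher (44.4%, against 4.55% of all genes) and none lower, with a median of 0.25. Of the 12 members in no other list, 3 were called higher, with a median of 0.07. Of the 8 calls, 4 stood in all 8 fits. C1qb, a chain of the recognition molecule C1q, went from 971, 999, 1120 and 960 CPM to 1170, 1380, 1250 and 1390 CPM, a change of 0.36 ± 0.08 (edgeR adjusted p = 0.00504), with no overlap. C1qa changed by 0.45 ± 0.11 and C1qc by 0.23 ± 0.07, with no call for C1qa without DMSO mouse 4 (adjusted p = 0.0562 in edgeR) and none for C1qc without DMSO mouse 1, 2 or 4 or SGC0946 mouse 2 or 4. C4b, which feeds the C3 convertase and has a near-identical copy in the mouse, rose from 0.671, 0.796, 0.876 and 0.9 CPM to 2.52, 4.02, 2.35 and 3.35 CPM. Cd55, which breaks up that convertase, rose from 0.923, 0.597, 1.19 and 0.525 CPM to 2.69, 2.38, 1.53 and 2.99 CPM. The receptor subunits Itgam (0.25 ± 0.06) and Itgax (0.80 ± 0.20) were also called, though 68.7% of the exon bases of Itgam overlap another gene and Itgax lost its call without DMSO mouse 2, DMSO mouse 4 or SGC0946 mouse 4. Without the SGC0946 libraries of mice 2 and 4, 1 member was called.

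MHC class II molecules present peptides to helper T cells. Of 14 tested genes of the class II pathway, 8 were called higher (57.1%, against 4.55% of all genes) and none lower, with a median of 0.37. Of these calls 4 stood in all 8 fits. Ciita, the master regulator of the class II genes, measured 6.04, 3.85, 5.81 and 4.28 CPM in DMSO and 9.12, 13.6, 12.7 and 14.3 CPM in SGC0946, a change of 1.33 ± 0.20 (edgeR adjusted p = 0.000257). H2-Ab1, a chain of the I-A molecule, measured 30.8, 25.9, 40.4 and 20.4 CPM and then 42.0, 70.6, 54.4 and 77.1 CPM, with mice 2 and 4 highest in SGC0946 and lowest in DMSO. Cd74, the invariant chain, changed by 0.98 ± 0.18. Without the SGC0946 libraries of mice 2 and 4, 1 member was called. By contrast none of 21 class I genes was called in either direction, with a median of -0.03. Of 16 tested genes of the dendritic cell list, 5 were called higher (31.2%, against 4.55% of all genes). They were Cd24a, Itgax, Batf3, Dpp4 and Clec10a, of which Cd24a kept its call in all 8 fits. The summed level of that list was 379 to 449 CPM in DMSO and 447 to 495 CPM in SGC0946. Its part in the class II result was not tested. H2 genes have close relatives, which leaves their counts uncertain.

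Promoters of a pair of class II genes are shown because both were called and sit near each other, though H2-Aa lost its call without SGC0946 mouse 4 and H2-Eb1 kept it in 2 of the 8 fits. Capitals mark CCAAT, a box bound by NF-Y, and CTAGNAAC, the X box core, each searched on both strands, so that ATTGG is the reverse of CCAAT. The window of H2-Aa is chr17:34287774-34288073 on the minus strand, and that of H2-Eb1 is chr17:34305617-34305916 on the plus strand.
H2-Aa: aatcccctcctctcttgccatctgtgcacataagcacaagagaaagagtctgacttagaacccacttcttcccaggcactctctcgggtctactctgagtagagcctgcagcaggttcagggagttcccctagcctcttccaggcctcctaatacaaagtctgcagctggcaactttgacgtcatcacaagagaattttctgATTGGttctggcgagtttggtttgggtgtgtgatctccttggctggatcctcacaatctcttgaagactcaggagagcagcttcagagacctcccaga
H2-Eb1: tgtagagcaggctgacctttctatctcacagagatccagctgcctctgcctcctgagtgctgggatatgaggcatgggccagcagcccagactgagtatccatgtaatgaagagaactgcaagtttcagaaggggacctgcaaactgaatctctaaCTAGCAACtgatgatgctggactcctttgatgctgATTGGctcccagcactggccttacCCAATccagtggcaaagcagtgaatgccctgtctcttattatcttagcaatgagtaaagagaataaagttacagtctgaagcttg
CCAAT was in the windows of 3 of 4 called class II members with a promoter in the table and in 38.7% of all 9644, and CTAGNAAC in 2 of 4 and in 3.41%. Among 5 class II members not called, 2 held CCAAT and 1 held CTAGNAAC.

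Cholesterol synthesis genes fell, with 18 of 24 tested members called lower (75.0%, against 4.18% of all genes) and none higher and a median of -0.58. Srebf2, which encodes the SREBP2 factor that drives the pathway, fell from 227, 223, 225 and 241 CPM to 175, 133, 174 and 141 CPM, a change of -0.56 ± 0.08 (edgeR adjusted p = 0.000223). Mvd, which decarboxylates mevalonate pyrophosphate, fell from 55.0, 59.3, 55.5 and 67.3 CPM to 40.7, 31.3, 39.3 and 32 CPM. Hmgcs1, the synthase at the head of the pathway, went from 239, 325, 297 and 330 CPM to 224, 166, 230 and 154 CPM. In each of the 3 genes the SGC0946 libraries of mice 2 and 4 were lowest, and no group overlapped. The list's median difference from the DMSO mean was -0.32 and -0.35 in the SGC0946 libraries of mice 1 and 3 and -0.87 and -0.86 in those of mice 2 and 4. Without the latter, 3 members were called and the median was -0.34, and 7 of the 18 calls stood in all 8 fits. Among fatty acid genes 7 of 23 were called lower (30.4%, against 4.18% of all genes) and none higher, with a median of -0.22.

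Promoters of Hmgcs1 and Mvd are shown for the letters that 11 of 12 called sterol genes with a promoter in the table share. Capitals mark CCAAT on either strand and, in Hmgcs1, TCACNCCAC, the core of the sterol element. The windows are chr13:119690101-119690400 (plus strand, starting site 113 bases from that of the counted transcript) for Hmgcs1 and chr8:122443373-122443672 (minus strand) for Mvd.
Hmgcs1: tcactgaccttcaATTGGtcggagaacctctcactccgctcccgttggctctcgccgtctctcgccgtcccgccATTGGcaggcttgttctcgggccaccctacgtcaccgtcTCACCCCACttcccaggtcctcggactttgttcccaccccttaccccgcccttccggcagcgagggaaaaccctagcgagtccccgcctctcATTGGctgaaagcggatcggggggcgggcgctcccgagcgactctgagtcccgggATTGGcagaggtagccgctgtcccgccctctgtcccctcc
Mvd: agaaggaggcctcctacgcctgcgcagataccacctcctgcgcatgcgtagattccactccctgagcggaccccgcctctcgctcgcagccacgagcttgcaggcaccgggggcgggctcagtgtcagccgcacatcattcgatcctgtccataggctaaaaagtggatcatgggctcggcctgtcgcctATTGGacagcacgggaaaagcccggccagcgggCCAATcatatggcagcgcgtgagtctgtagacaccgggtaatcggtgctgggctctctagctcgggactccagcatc
CCAAT was also in 3 of 5 sterol genes not called and in 38.7% of all promoters of tested genes, and TCACNCCAC in 1 of 12 called members and in 1.05% of all. Over all called genes, promoters of the rises held fewer CpG pairs than those of the falls, with a median of 17 against 23 and of 21 for all tested genes, and 16% of the rises against 7.51% of the falls had under 5 (8.13% of all). CCAAT was in 30.8% of the promoters of genes called higher and in 38.9% of those called lower.

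**Figure D4:**
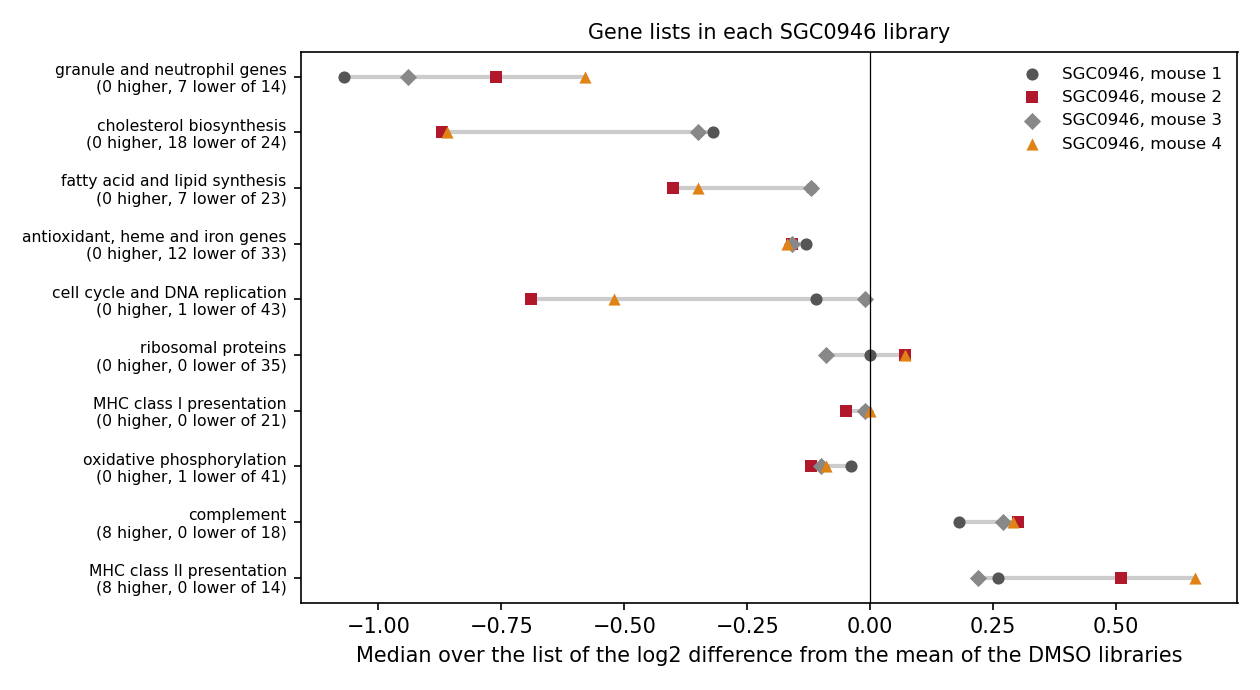
Median over each gene list of the log2 difference between one SGC0946 library and the mean of the DMSO libraries, with a marker per mouse and a bar over their range. The cholesterol list lies at -0.87 and -0.86 in mice 2 and 4 and at -0.32 and -0.35 in mice 1 and 3, while the antioxidant list lies at -0.17 to -0.13 in all 4.

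Receptors by which macrophages sense their surroundings changed gene by gene. Of 33 chemokines and chemokine receptors tested, 4 were called higher (12.1%) and 1 lower (3.03%), against 4.55% and 4.18% of all genes. Ccr1, a receptor for inflammatory chemokines, changed by 0.54 ± 0.13 (edgeR adjusted p = 0.00883), with overlapping ranges. Of 44 cytokines and cytokine receptors, 9 were called higher (20.5%) and 1 lower (2.27%). Rises included Csf2rb, the beta chain shared by the GM-CSF and IL-3 receptors (0.31, from 311 to 387 CPM), its close copy Csf2rb2 (0.27) and the growth factor gene Pdgfb (0.60). The fall was Il17ra (-0.64, from 28.4 to 31.1 CPM in DMSO to 16.2 to 21.9 CPM in SGC0946). Among 24 C-type lectins and Siglecs, 5 rose (20.8%) and 4 fell (16.7%). Clec7a, the beta-glucan receptor dectin-1, changed by 0.98, from 178 to 350 CPM on average, and Clec4d, a receptor of the dectin-2 family, by -0.39, from 241 to 184 CPM. Of 27 scavenger and efferocytosis receptors and their ligands, 1 was called higher (3.7%) and 4 lower (14.8%). The falls included Stab1 (stabilin-1, -0.54, from 792 to 547 CPM) and Gas6 (-0.27 ± 0.06), the ligand that bridges dying cells to MERTK.

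Enzymes and proteins of the matrix rose at several loci. Mmp12, the macrophage elastase, went from 310, 251, 312 and 272 CPM to 572, 397, 811 and 594 CPM, a change of 1.05 ± 0.20 (edgeR adjusted p = 0.00219), and the collagenase Mmp13 from 15.6, 15.9, 13.4 and 11.3 CPM to 33.8, 25.6, 43.1 and 33.1 CPM. Neither overlapped, and in both genes mouse 3 was highest and mouse 2 lowest in the SGC0946 arm. In all 5 of 32 matrix proteases and inhibitors were called higher (15.6%) and 1 lower (3.12%). Of 18 matrix proteins, 5 were called higher (27.8%) and 2 lower (11.1%). Of all genes 4.55% were called higher and 4.18% lower. In the TGF-beta, Wnt and Notch list 6 of 35 were called higher (17.1%) and 3 lower (8.57%). Bmp2 (1.25, from 3.68 to 8.72 CPM) and the Wnt antagonist Dkk2 (1.13) came first among the rises. The falls were Lrp5, Smad7 and Ski, of which Smad7 and Ski kept their calls in 2 and 1 of the 8 fits. In the MAPK and Ras list 5 of 36 were called lower (13.9%) and none higher. Rasgrp3, an exchange factor for Ras (-0.58, from 117 to 77.9 CPM), and Rgl1 (-0.49) led the falls.

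Of the 476 genes over 100 RPKM, 19 were called higher with a median change of 0.41 and 44 lower with a median of -0.23, and 2 changed 2-fold or more, Mmp12 and the RNA Malat1. Ctss, the protease cathepsin S that trims the invariant chain, measured 3200, 3060, 3190 and 2710 CPM in DMSO and 3630, 3880, 3590 and 3940 CPM in SGC0946, a change of 0.31 ± 0.06 (edgeR adjusted p = 0.003). Trem2, a lipid-sensing receptor of tissue macrophages, measured 541, 534, 561 and 526 CPM and then 458, 472, 462 and 483 CPM (-0.20 ± 0.06), and Cd68, a lysosomal glycoprotein used as a macrophage marker, 1960 to 2060 and then 1790 to 1910 CPM (-0.14 ± 0.04). The groups did not overlap in these 3 genes, but Trem2 and Cd68 lost their calls in each fit that left out any 1 of the 8 libraries, where the largest adjusted p in edgeR was 0.089 and 0.128. Of 31 tested macrophage identity genes, 4 were called higher (12.9%) and 2 lower (6.45%), against 4.55% and 4.18% of all genes.

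Regulators of transcription were called in both directions. Of 57 myeloid and signal-dependent factors, 8 were called higher and 3 lower. Runx2, a Runt factor known from bone and from plasmacytoid cells, fell from 7.72, 6.9, 6.77 and 7.58 CPM to 3.04, 2.83, 2.8 and 4.21 CPM, a change of -1.15 ± 0.17 (edgeR adjusted p = 0.000152). Ahr, the receptor for aryl hydrocarbons, rose from 4.45, 4.38, 3.9 and 5.1 CPM to 9.38, 12.3, 7.94 and 9.05 CPM, a change of 1.12 ± 0.16, and Bhlhe40 by 0.54 ± 0.10. Runx2 and Ahr were called under GW3965 (-1.21 and 1.1) and not after LPS (-0.55 and 0.29), and the difference between LPS and unstimulated cells did not pass the test for either (edgeR adjusted p = 0.731 and 0.332). Of 53 histone-modifying enzymes, 3 were called higher and 3 lower, 5.66% each way, which is near the 4.55% and 4.18% of all genes and no result about the class. Tet1, which oxidises methylated cytosine, changed by 2.15 ± 0.36 at a low level (0.392 ± 0.254 CPM in DMSO and 1.71 ± 0.516 in SGC0946, SD, n = 4). The H3K27 demethylase gene Kdm6b measured 17.6, 14.9, 18 and 18.3 CPM in DMSO and 19, 40.7, 24.6 and 33.9 CPM in SGC0946, highest in mice 2 and 4, and Kdm5b, an H3K4 demethylase gene, changed by 0.49 ± 0.10. The falls were Nsd2, Hdac9 and Ezh2 at -0.35 to -0.31, and each lost its call in 5 or 6 of the 8 fits, DMSO mouse 4, SGC0946 mouse 2 and SGC0946 mouse 4 among the libraries left out. Of 19 tested HOX and progenitor genes 1 was called higher (Igf2bp3) and 1 lower (Pbx3, in 5 of the 8 fits). That is 5.26% each way, near the shares of all genes. Of 27 tested subunits and partners of DOT1L none was called, with a median of 0.00.

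Other lists held few or no called genes. None of 35 ribosomal protein genes was called (median 0.02), 1 of 41 oxidative phosphorylation genes was lower (median -0.07), and 1 of 39 interferon-stimulated genes was higher (median -0.09), against 8.72% of all genes called. A count of 0 called does not show equal levels. Of 43 cell cycle genes, 1 was called lower, E2f2 (-0.62 ± 0.12), and 7 with the mouse as a block. The median of that list was -0.30, and its difference from the DMSO mean was -0.11, -0.69, -0.01 and -0.52 in SGC0946 libraries 1 to 4, lowest in the same mice 2 and 4 as the sterol list.

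Some called genes differed widely among the SGC0946 libraries. Thbs1, which encodes the adhesive protein thrombospondin 1, measured 86.7, 102, 89.9 and 72.2 CPM in DMSO and 108, 250, 111 and 241 CPM in SGC0946, high in mice 2 and 4. Hsd17b7, a sterol enzyme gene, measured 20.7, 28.7, 25.8 and 31.6 CPM and then 18.5, 10.1, 20.8 and 7.84 CPM, lowest in the same mice, while mouse 3 lay inside the DMSO range. Clec10a, a galactose-binding lectin gene, was highest in mouse 2 in both arms, at 24.4 CPM in DMSO and 51.6 in SGC0946. The nuclear RNA Malat1 followed another order, with 548, 479, 705 and 703 CPM in DMSO and 696, 2170, 2200 and 1430 CPM in SGC0946, where mouse 1 lay inside the DMSO range. Without the SGC0946 libraries of mice 2 and 4 together, none of these 4 genes was called, and with 1 library left out at a time Thbs1 was called in 5 of the 8 fits, Hsd17b7 and Clec10a in 3 and Malat1 in 1 (without the 2 libraries, edgeR adjusted p = 0.614 for Thbs1, 0.478 for Hsd17b7, 0.608 for Clec10a and 0.22 for Malat1).

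The same comparison after LPS called 856 genes (7.13%) and under GW3965 437 (3.64%), or 703 under GW3965 with the mouse as a block. These use other libraries of mice 1 to 3. The titles of all DMSO libraries under GW3965 carry the word reanalyzed. Those of the SGC0946 libraries under GW3965 and of the LPS libraries in both arms do not. Whether this has a part in the shares below was not tested. Of the 546 rises in unstimulated cells, 201 were called higher after LPS (36.8% of them and 43.3% of the 464 rises there) and 219 under GW3965 (40.1% of them and 81.4% of the 269 rises there). Of the 502 falls, 159 were called lower after LPS (31.7%, and 40.6% of 392) and 129 under GW3965 (25.7%, and 76.8% of 168). No gene was called in opposite directions. In all 3 conditions 126 genes were called higher and 78 lower, Sort1, App, Lrp5, Armcx2, Mamdc2 and Mgll among them. The difference of the effect between conditions passed the test for 1 gene after LPS (0.00832%) and for 0 under GW3965 (0.0%), where edgeR gave 835 and 291 genes at an unadjusted p under 0.05 and DESeq2 called 37 and 0. The gene was Lcn2, an iron-scavenging protein gene of the granule list. It measured 2.18, 3.12, 3.66 and 3.68 CPM in DMSO and 0.174, 0.298, 0.181 and 0.356 CPM in SGC0946 unstimulated, a change of -3.55 ± 0.28. After LPS it was at 17.9 ± 1.03 and 11.3 ± 2.34 CPM (SD, n = 3), a change of -0.67, and the difference between the effects was 2.89 ± 0.34 (edgeR adjusted p = 0.000395).

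**Figure D5:**
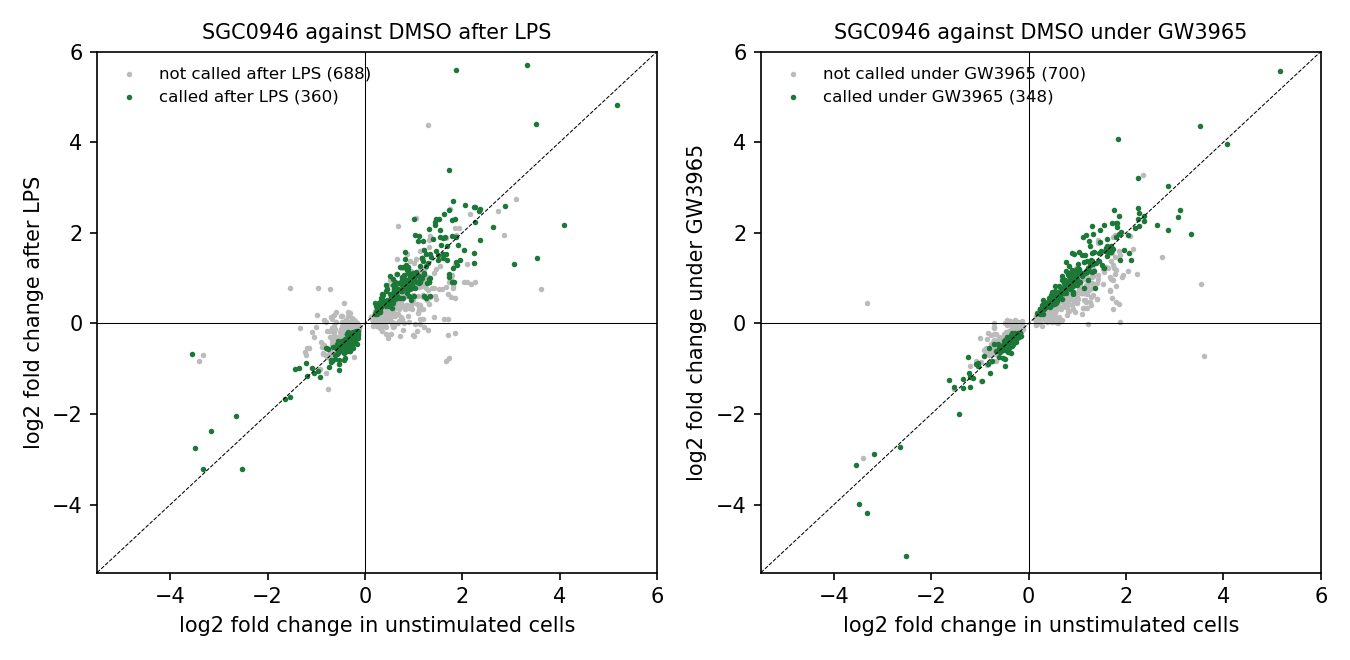
Log2 fold change of SGC0946 against DMSO after LPS (left) and under GW3965 (right) for the 1048 genes called in unstimulated cells, over their change in unstimulated cells, with the line of equality dashed. Genes called again (360 after LPS and 348 under GW3965) are green and lie on the same side of 0 in both conditions.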

How the data were processed

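RNA-seq was done on 20 libraries of mouse bone marrow-derived macrophages, of which the 8 unstimulated ones carry the comparison. Per the labels' protocols, 700 ng of RNA went into the KAPA mRNA HyperPrep kit and was read single-end, 50 bases, on a HiSeq 4000. The submitters' processing notes name STAR 2.5.2b, SAMtools 1.3.1 and the mm10 build; how reads were counted, with which annotation and strand, is not given in the sources used here. Deposited by the authors were read counts per RefSeq transcript and RPKM, which scales them by transcript length and depth.

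Each symbol was represented by its transcript of highest total count (57.3% of all counts), and 305 transcripts without a name (1.17% of counts) were left out. The deposited RPKM served only to compare levels between genes. Counts were tested with edgeR 4.0.16 (R 4.3.3): filterByExpr with a count minimum of 10, TMM scaling, 1 mean per group over all 20 libraries, the quasi-likelihood F test, and Benjamini-Hochberg adjustment over 12013 genes with a threshold of 0.05. The procedure was tested on simulated data. limma 3.58.1 (voom) and DESeq2 1.42.0 were alternatives, as were other scalings, filters, transcript choices, thinned counts and left-out libraries. Principal components and CPM used the same counts. Intervals of count ratios are exact, at 95%, and cover counting error only.

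Replicate numbers equal the mouse numbers of the deposited sample table, so samples are paired by animal. The correlation between the arms of deviations from the group means was 0.40, 0.16, 0.06 and 0.09 for mice 1 to 4. Between libraries of different mice it was -0.25 to 0.13, a range that holds the values of mice 3 and 4. The fit with the mouse as a block was an alternative.

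Named genes were the called genes with the smallest p, the highest level or the largest change, the leading called members and highest uncalled members of each list, marker genes, genes with the smallest p in the differences of effects, and those with the widest spread in SGC0946. Bhlhb9, the Armcx genes, Casd1, Pon2, Pon3, Gng11, Asb4, Sem1, H2-Aa, H2-Eb1, H2-Ob, Mmp10, Hmgcs1 and, of the antioxidant list, Srxn1, Cat, Gclm, Gclc, Mt1, Txn1, G6pdx and Nfe2l2 were chosen after their values were seen. The comparison and all gene lists were chosen with earlier results of these data known. Promoter windows came from RefSeq's table for GRCm38.p6, which matched 9644 tested genes.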

Additional observations from a re-analysis of the deposited data

Results flagged for a closer look

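Of 276 groups of 4 libraries examined by Dixon's test, 10 held a library whose gap to its nearest neighbour passed the 95% critical value, and chance alone marks about 1 in 20 groups. In the SGC0946 arm mouse 2 stood high for Ppp1r9a (31.7 CPM) and Lrp5 (29.5 CPM), mouse 4 for Itm2a (2.71 CPM), Runx2 (4.21 CPM) and Chil3 (2.49 CPM), and mouse 1 for G6pdx (200 CPM). In the DMSO arm mouse 3 stood high for C1qc (992 CPM) and mouse 2 for Clec10a (24.4 CPM), and mouse 3 stood low for Dkk2 (1.11 CPM). The median of the TGF-beta, Wnt and Notch list stood low in SGC0946 mouse 1, at -0.04. Between conditions, the effect of SGC0946 on Lcn2 differed after LPS from that in unstimulated cells by 2.89 on the log2 scale in edgeR's interaction contrast.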

How the results depend on the processing

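For unstimulated cells, 1048 genes were called, 1663 with limma-voom, 321 without SGC0946 libraries 2 and 4, 167 with DMSO library 4 as the only control (this lone library is assumed to vary like the other groups), 339 with mice 1 to 3 alone (an alternative chosen after seeing the data), and 578 to 1099 with 1 library left out. With the mouse as a replicate block the count was 1481. After LPS the count was 432 to 796 with 1 library left out. Under GW3965 it was 703 with the replicate block, 164 when only the groups of the contrast were fitted, and 232 to 454 with 1 library left out. For the LPS difference it was 37 with DESeq2, 11 with no filter, 6 with the replicate block, 5 with limma-voom, 2 without SGC0946 libraries 2 and 4, and 1 to 11 with 1 library left out; for the GW3965 difference it was 0 to 0. The causes were not tested. Fewer libraries leave less power, and low counts make small changes in either direction harder to call. Over 117 named genes and all alternatives run, 2156 of 2556 values stayed on their side of the threshold, 395 lost the call, 5 gained it and 0 reversed direction, and the replicate block ended no call of a named gene.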
